A study of Homo sapiens
Mus musculus with 2 samples.

Results

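Non-dividing deep crypt secretory cells came from the colon of 1 untreated wild-type (WT) C57Bl6 mouse, whose epithelium was taken apart into single cells. Its age and sex are not given in the labels. Both libraries, replicates 1 and 2, hold different cells of this mouse from 1 sequencing run, mixed with cells of the human leukaemia line K562, which were not analysed here. The libraries form 1 group, so no conditions were compared, and the comparisons are between classes of cells within each library. Cells were captured with inDrop, a droplet method in which each cell receives a barcode and each captured molecule a unique molecular identifier (UMI).

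The cells were chosen on measured values. Levels are given in CPM, a gene's UMIs scaled to a total of 1000000 UMIs for the barcode or the summed class, and a barcode belonged to the class when it held at least 3000 UMIs and met 4 limits. The sum of Mptx1, Retnlb, Atoh1, Spdef, Klk1 and Tpsg1, called the secretory sum below, was at least 1500 CPM. Zg16, the main lectin of mature goblet cells, was below 20000 CPM, and the colonocyte sum of Prdx6, Tgm3 and Ces2c was below 2500 CPM. The sum of Top2a, Cdk1, Birc5, Ube2c, Ccna2, Ccnb2, Cdc20, Pbk, Nusap1 and Aurka, called the cycling sum, was below 1000 CPM. These limits selected 331 of 2402 barcodes, of which 1570 had at least 3000 UMIs. Replicate 1 contributed 231 cells, which were 13.3% of its 1738 barcodes (exact binomial 95% interval 11.7% to 14.98%). Replicate 2 contributed 100 cells, which were 15.1% of its 664 barcodes (12.4% to 18.0%).

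Deep crypt secretory cells sit at the base of colonic crypts, next to the stem cells, and are regarded as the colonic counterpart of the Paneth cells of the small intestine. They are known for the secreted lectin Reg4 and the receptor Kit, and they present Notch and growth factor ligands to their neighbours. They belong to the same Atoh1-dependent secretory lineage as goblet cells, which fill granules with the gel-forming mucin Muc2 and move up the crypt as they mature. Secretory proteins of both kinds of cell are folded and disulfide-bonded in the endoplasmic reticulum and, in the case of mucins, glycosylated in the Golgi apparatus.

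Mptx1, which encodes a pentraxin and was used by the limits, was the largest part of the secretory sum in 121 of 231 cells of replicate 1 and in 60 of 100 cells of replicate 2. Klk1, a kallikrein protease, was the largest part in 46 and 24 cells, and Retnlb, the goblet cell product also called RELM-beta, in 43 and 11 cells. Atoh1, the transcription factor that commits cells to the secretory lineage, was the largest part in 17 and 2 cells. The median Mptx1 level was 1362 CPM in replicate 1 and 1369 CPM in replicate 2, while the highest cell reached 71649 CPM. Mptx1 alone met the secretory limit in 111 cells of replicate 1 and 48 cells of replicate 2. The cells nearest the secretory limit had 1525 and 1578 CPM inside it and 1483 and 1485 CPM outside it. For Zg16 the nearest values were 19239 and 19811 CPM inside and 20118 and 21969 CPM outside. No gap in either quantity separated the chosen cells from the rest.

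The cells held 1423447 UMIs in replicate 1 and 731345 UMIs in replicate 2, with medians of 5911 and 7092 UMIs and 2635 and 2870 genes per cell. The median mitochondrial share of UMIs was 3.21% and 6.98%. The 7 tuft cell markers summed to 876 and 788 CPM in deep crypt secretory cells, against 378 and 374 CPM in goblet cells and 432 and 431 CPM in undifferentiated crypt cells. Of these sums Cd24a, which deep crypt secretory cells are also known to carry, made up 781 and 614 CPM, and Avil 52.0 and 98.5 CPM, against 70.0 and 109 CPM of Avil in goblet cells and 8.95 and 16.1 CPM in undifferentiated cells. The tuft cell markers Dclk1, with 14.1 and 24.6 CPM, and Trpm5, with 7.03 and 12.3 CPM, lay below the undifferentiated cells' 19.9 and 62.7 CPM and 12.9 and 28.6 CPM in each library. Rgs13, another of them, went the other way with 16.9 and 35.55 CPM, against 9.95 and 34.0 CPM in undifferentiated cells. Goblet cells had 30.1 and 55.4 CPM of Rgs13. At least 3 tuft cell markers were found in 14 of 231 and 19 of 100 deep crypt secretory cells. The same held for 24 of 210 and 19 of 58 goblet cells, and for 4 of 154 and 7 of 71 undifferentiated cells. The part of the tuft cell markers in the results was not tested. The 8 enteroendocrine markers came to 41.5 and 27.4 CPM, the 8 T cell markers to 48.5 and 103 CPM, the 6 macrophage markers to 9.13 and 6.84 CPM, and the 5 plasma cell markers to 15.5 and 13.7 CPM. The 7 colonocyte markers summed to 643 and 1160 CPM in deep crypt secretory cells, against 20720 and 15500 CPM in colonocytes. The 5 Paneth cell markers summed to 25.3 and 9.57 CPM, with the defensin genes Defa17 and Defa24 at 0. Of the Paneth cell signal, 18.3 and 4.10 CPM came from Lyz1, the lysozyme of Paneth cells.

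RNA released from broken cells gives UMIs in cells that do not express a gene. Barcodes with T cell markers served as the comparison, 47 in replicate 1 (median 1659 UMIs) and 9 in replicate 2 (median 2138 UMIs). After thinning each barcode to 1000 UMIs, Reg4 had a UMI in 72.3% and 69.0% of deep crypt secretory cells, against 12.8% and 11.1% of T cell barcodes. Without thinning these shares were 87.4% and 87.0% of deep crypt secretory cells, against 27.7% and 11.1% of T cell barcodes. After thinning Txndc5 had a UMI in 153 of 231 and 50 of 100 deep crypt secretory cells, against 3 of 47 T cell barcodes in replicate 1 and 0 of 9 in replicate 2, where 0 allows a share of up to 33.6%. Zg16 went the other way, with a UMI in 65.4% and 74.0% of deep crypt secretory cells, against 95.7% and 88.9% of T cell barcodes. Without thinning 97.0% of deep crypt secretory cells of each library and every T cell barcode had a UMI of it. Summed Zg16 was 2200 and 3520 CPM in deep crypt secretory cells, against 4346 and 3224 CPM in T cell barcodes. The part of released RNA in the Zg16 of deep crypt secretory cells was not tested.

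The label was checked against the markers that the limits did not use, Reg4 and Txndc5. Among the chosen cells Reg4 went with Mptx1, a gene of the limits, so for Reg4 the check is not independent of the limits. Reg4 stood at 5922 and 4200 CPM in deep crypt secretory cells of replicates 1 and 2, against 927 and 516 CPM in goblet cells and 720 and 401 CPM in undifferentiated crypt cells. Txndc5, a protein disulfide isomerase of the endoplasmic reticulum, had 1156 and 833 CPM in deep crypt secretory cells, 336 and 239 CPM in goblet cells, and 322 and 204 CPM in undifferentiated crypt cells. For both genes the 2 library sums of deep crypt secretory cells lay above those of goblet and undifferentiated cells, while single cells ranged more widely. Dividing secretory cells, which met the same limits but had a cycling sum of at least 1000 CPM, had 3732 and 4285 CPM of Reg4 and 860 and 838 CPM of Txndc5, which overlapped the values of the non-dividing cells. Colonocytes had the lowest Reg4, 177 and 341 CPM. Kit, the receptor for stem cell factor, had 143 and 116 CPM in deep crypt secretory cells, against 84.5 and 129 CPM in dividing secretory cells, 26.6 and 38.1 CPM in goblet cells, and 42.8 and 23.3 CPM in undifferentiated crypt cells.

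**Figure D1:**
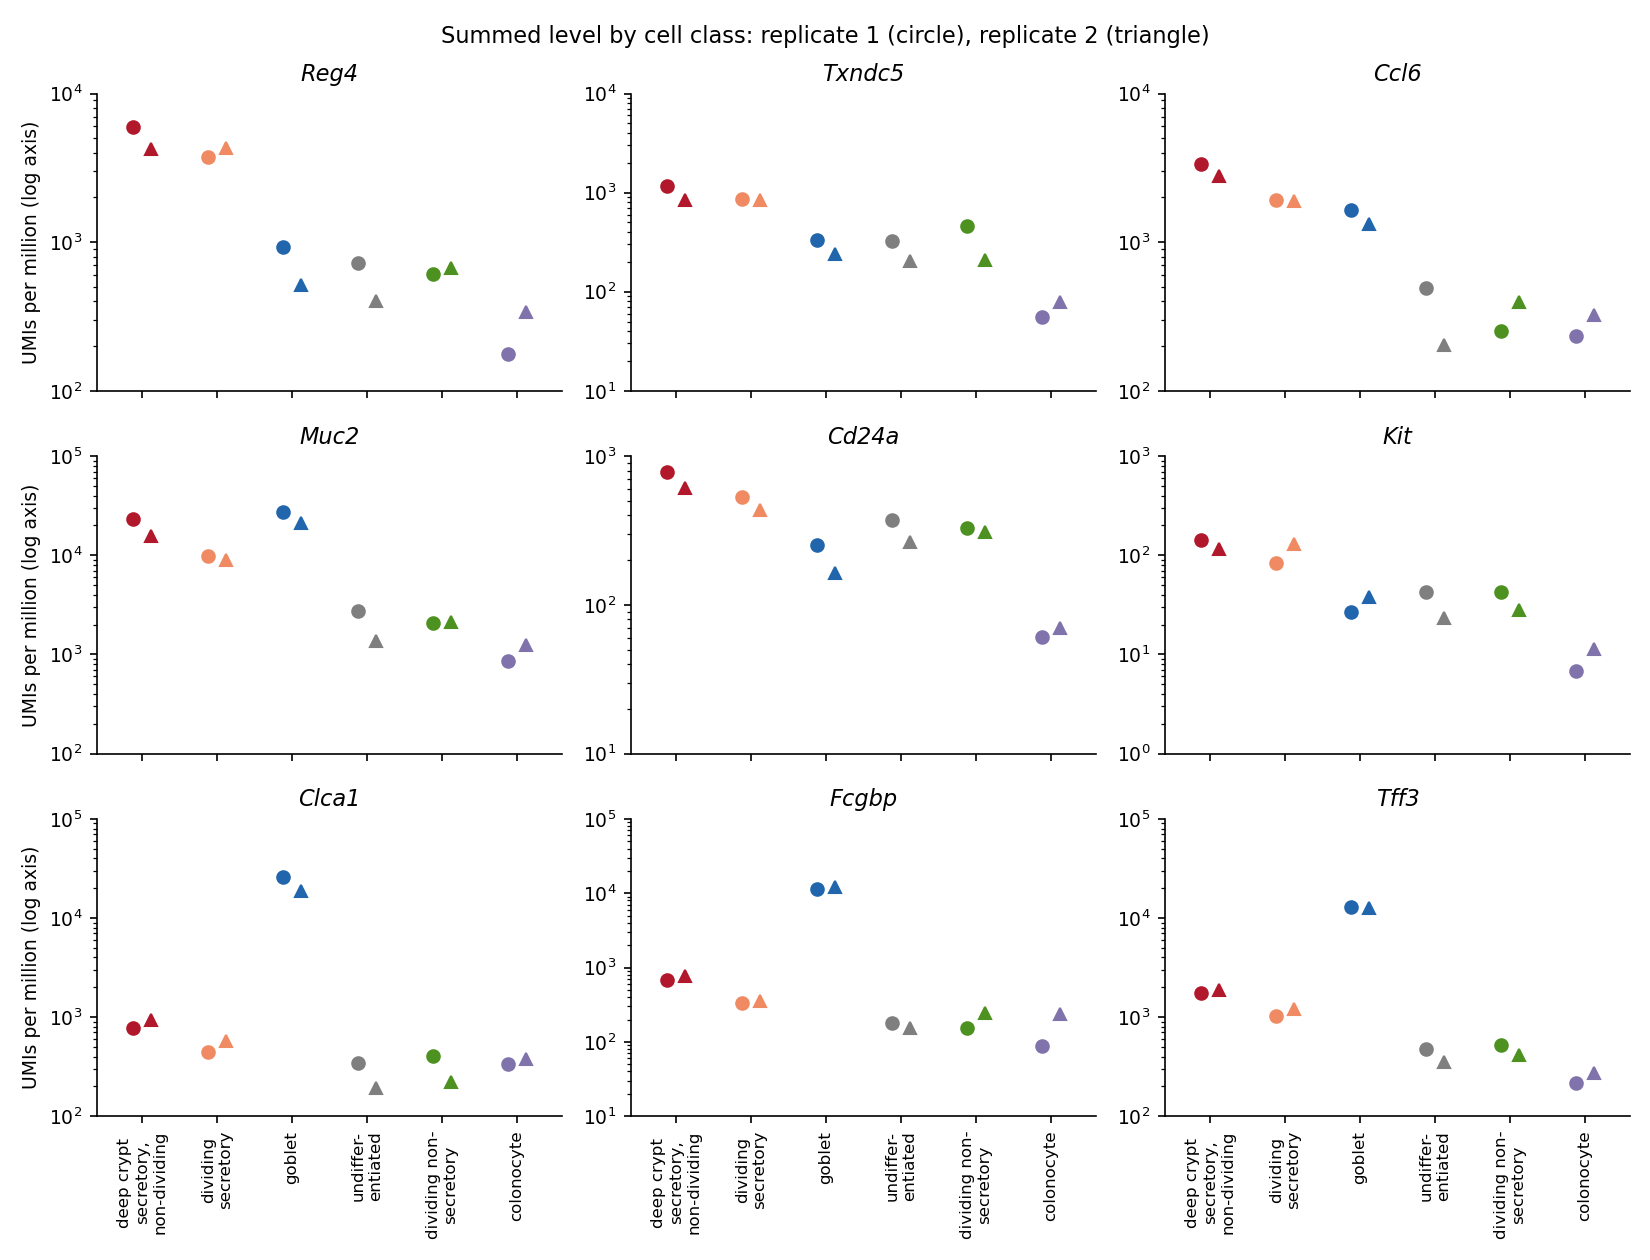
Summed level (CPM, log axis) of 9 genes in 6 cell classes, with replicate 1 as a circle and replicate 2 as a triangle. Reg4, Txndc5, Cd24a and Kit were high in both secretory classes with low Zg16, Muc2 was high in these and in goblet cells, and Clca1, Fcgbp and Tff3 were highest in goblet cells.

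Each comparison below tests UMIs summed per library and class with edgeR's quasi-likelihood test, with the library as a block and Benjamini-Hochberg adjustment over 16444 genes. A gene passed at an adjusted p below 0.05, differences are log2 fold changes ± SE, and the 29 genes used by any limit were left out. The fold changes use class totals without these 29 genes, scaled by edgeR's TMM factor, whereas CPM use all UMIs. A fold change can therefore differ from the ratio of the printed CPM, and near 0 also in sign. The other genes were counted in the same cells and can follow the genes of the limits, so the tests describe how the classes differ and give no independent evidence that the classes exist. With the library as a block, the p-values cover only how the class differences vary between 2 libraries of 1 animal. This spread was estimated over all 6 classes and may be technical. In summed cells, fewer cells with a transcript and less transcript per cell cannot be told apart.

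Goblet cells were the first comparison. They were the 268 barcodes with Zg16 of at least 20000 CPM, a colonocyte sum below 2500 CPM and a cycling sum below 1000 CPM. Relative to them, deep crypt secretory cells had higher Reg4 (2.49 ± 0.16), Kit (1.79 ± 0.26), the stem cell niche factor Sox9 (3.04 ± 0.24) and the Notch ligand Dll1, and far lower levels of the mucus proteins Clca1 (-4.99 ± 0.16), Fcgbp (-4.32 ± 0.16) and Tff3 (-3.10 ± 0.14). In all, 1000 genes (6.08% of those tested) were higher and 1075 genes (6.54%) lower in deep crypt secretory cells, 1336 of them by at least 2-fold. The median over all genes was 0.03. With library totals in place of the TMM scaling factor this median moved by 0.30 and 77.5% of the calls were higher in deep crypt secretory cells, against 48.2% with TMM. Directions near the median of all genes therefore depend on the scaling.

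Among 17 tested secreted products of deep crypt and Paneth cells, 8 were higher and 3 lower than in goblet cells, with a median of 0.51. This list was drawn up with earlier results of these data known, as were the others. Pla2g2a, a secreted phospholipase, had 293 and 220 CPM in deep crypt secretory cells, against 57.4 and 20.8 CPM in goblet cells (2.35 ± 0.23). The chemokine gene Ccl6 had 3362 and 2798 CPM, against 1640 and 1330 CPM in goblet cells (0.75 ± 0.15), and Nov, a secreted matricellular protein, had 636 and 416 CPM, against 207 and 156 CPM (1.21 in log2). Both libraries of deep crypt secretory cells lay above both of goblet cells for these 3 genes. Slpi, an antiprotease, went the other way with 214 and 336 CPM in deep crypt secretory cells and 1626 and 2069 CPM in goblet cells (-3.08 ± 0.16), as did Sval1 and Ang4. Agr2, the isomerase needed for mucin folding, had 4491 and 5514 CPM in deep crypt secretory cells and 3944 and 4747 CPM in goblet cells and did not pass the test (-0.10 ± 0.13, adjusted p = 0.764). Its sign differs from that of the CPM, which are scaled differently, so no direction is read from it.

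Mucus proteins were lower for 8 of 11 tested genes and higher for none, with a median of -1.17. Clca1, a protease that remodels the mucus layer, had 781 and 931 CPM in deep crypt secretory cells and 26120 and 18700 CPM in goblet cells. Fcgbp, which crosslinks to Muc2, had 681 and 778 CPM, against 11430 and 12210 CPM in goblet cells, and the trefoil peptide Tff3 had 1766 and 1887 CPM, against 12970 and 12500 CPM. Muc2 itself was lower by less, with 23030 and 15630 CPM in deep crypt secretory cells and 27300 and 21330 CPM in goblet cells (-0.64 ± 0.13, adjusted p = 3.45e-05; the call was lost without the library block), and was the most abundant transcript of the deep crypt secretory cells, at 2.30% and 1.56% of their UMIs. The Zg16 limit separates the classes, and Clca1, Fcgbp and Tff3 ran with Zg16 across bands of barcodes, so their direction is not independent of the choice of cells.

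Genes of granule trafficking and exocytosis were lower for 12 of 23 tested genes and higher for none, with a median of -0.84. Rab27a, a small GTPase that docks secretory granules, had 62.5 and 49.2 CPM in deep crypt secretory cells and 313 and 265 CPM in goblet cells (-2.66 ± 0.21). The calpain protease Capn9 had 47.8 and 76.6 CPM in deep crypt secretory cells, against 347 and 253 CPM in goblet cells (-2.67 ± 0.22). Bcas1 (-2.44 ± 0.17), Rab27b and Scin were lower as well. Both libraries of deep crypt secretory cells lay below both of goblet cells for each of these genes.

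The machinery that makes secretory proteins gave calls that depended on the scaling. Of 39 genes of translocation into the endoplasmic reticulum and of vesicle coats, 3 were higher and 1 lower (median 0.14), though 22 were higher and 1 lower with library totals in place of TMM. Of 27 disulfide isomerases and chaperones, 5 were higher and 3 lower (median 0.02). Txndc5 (1.48 ± 0.16) and its relative Pdia5 (1.23 ± 0.19) were higher, whereas the chaperone Hspa5 was lower at 1830 and 1540 CPM in deep crypt secretory cells and 2210 and 1720 CPM in goblet cells (-0.52 in log2). With library totals 10 of these 27 were higher and 1 lower. Creb3l1, a membrane-bound transcription factor that raises secretory capacity, had 806 and 614 CPM, against 247 and 173 CPM in goblet cells (1.44 ± 0.16), and its relative Creb3l4 was also higher (1.03 ± 0.24), a call lost with DESeq2, without the library block and in sums thinned to equal depth. Both were among 2 higher and 2 lower of 21 genes of the unfolded protein response.

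Enzymes that build mucin sugars were higher for 8 and lower for 3 of 35 tested genes (median 0.19). A4gnt, which caps mucin glycans with alpha-linked N-acetylglucosamine, had 45.7 and 47.9 CPM in deep crypt secretory cells, and goblet cells held 3 UMIs in all. The ratio was 31.0, with a 95% counting interval of 10.3 to 153. Fut4, a fucosyltransferase, had 196 and 148 CPM, against 37.1 and 34.7 CPM in goblet cells (1.97 ± 0.24), and B3gnt7 was also higher (1.43 in log2). Gcnt3, which branches mucin O-glycans, was lower with 386 and 276 CPM in deep crypt secretory cells and 950 and 794 CPM in goblet cells (-1.71 in log2).

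Transcription factors of the secretory lineage were higher for 5 and lower for 2 of 20 tested genes (median 0.46). Sox9 had 254 and 197 CPM in deep crypt secretory cells and 28.0 and 12.1 CPM in goblet cells, and Sox4 had 34.4 and 46.5 CPM, against 2.80 and 3.47 CPM (3.34 ± 0.50). Nr4a1, an immediate early nuclear receptor, had 175 and 161 CPM, against 18.2 and 17.3 CPM in goblet cells (2.91 ± 0.28). Klf4, which is needed for goblet cell maturation, had 372 and 387 CPM in deep crypt secretory cells and 1124 and 1116 CPM in goblet cells (-1.86 ± 0.15). The pan-secretory factors Foxa1, Foxa2, Foxa3 and Gfi1 did not pass the test, with differences between -0.24 and 0.41. Etv5, an ETS family factor outside the lists, was among the largest changes with 97.7 and 65.6 CPM in deep crypt secretory cells and 3.50 and 1.73 CPM in goblet cells (4.48 ± 0.46).

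Signals to and from neighbouring cells were mixed. Of 17 Notch pathway genes, Dll1 and Mib1, a ligase that activates Notch ligands, were higher and the Notch target Hey1 was lower (median 0.14). The Mib1 call was lost with DESeq2, without the library block, in thinned sums and with a secretory sum of at least 3000 CPM, and the Hey1 call with library totals, without the library block and in thinned sums. Dll1 had 24.6 and 26.0 CPM in deep crypt secretory cells, against 2 UMIs over both libraries of goblet cells, a ratio of 25.1 with a counting interval of 6.63 to 213. Dll4, the other Delta ligand, had 86.4 and 79.3 CPM in deep crypt secretory cells and 53.9 and 58.9 CPM in goblet cells and did not pass (0.26 ± 0.25, adjusted p = 0.617). Of 17 genes of epidermal growth factor and Kit signalling, 3 were higher and 8 lower (median -1.07). Kit, its ligand gene Kitl and Lrig1, a negative regulator of epidermal growth factor receptors, were higher. The ligand gene Tgfa was lower (-1.12 ± 0.28), with 40.0 and 21.9 CPM in deep crypt secretory cells and 63.0 and 48.5 CPM in goblet cells, a call lost without the library block. Egf had 20.4 and 31.5 CPM, against 9.11 and 17.3 CPM, which did not pass (0.71 ± 0.41, adjusted p = 0.308). Il13ra1, a receptor chain for the cytokine that drives goblet cells, had 266 and 220 CPM, against 694 and 548 CPM in goblet cells (-1.65 ± 0.16).

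Of 26 Wnt and stem cell genes, 9 were higher and 3 lower than in goblet cells (median 0.12). The Wnt targets Cd44 (2.72 ± 0.45), Ephb3 (2.68 ± 0.49) and Axin2 (1.72 in log2) were higher. Lgr5, the receptor that marks stem cells, had 8.43 and 5.47 CPM in deep crypt secretory cells and 7.71 and 8.66 CPM in goblet cells (-0.43 ± 0.58, adjusted p = 0.759). The Wnt3 ligand had 3 UMIs in replicate 1 and 1 UMI in replicate 2 and was too low to compare.

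Growth and cycle genes were higher in number than lower, with the cycling sums of both classes held below the same limit. Of 30 DNA replication genes, 13 were higher and none lower (median 1.04), among them the helicase subunit Mcm6 with 61.1 and 36.9 CPM in deep crypt secretory cells and 8.41 and 5.20 CPM in goblet cells (2.48 ± 0.39). Of 22 ribosome biogenesis genes, 15 were higher and none lower (median 1.40), among them Gar1 of the small nucleolar complexes with 42.2 and 58.8 CPM, against 7.004 and 8.66 CPM (2.38 ± 0.41). Of 26 mitosis genes outside the limits, 2 were higher and 1 lower. The cell cycle inhibitor gene Cdkn1a had 137 and 150 CPM in deep crypt secretory cells and 922 and 943 CPM in goblet cells (-3.00 ± 0.18), and 7 of 21 genes of cycle exit were lower while Ccnd1 and Ccnd2 were higher. Id1, a target of bone morphogenetic protein signals, had 207 and 178 CPM, against 855 and 759 CPM (-2.37 ± 0.16), and Id3 was lower too (-2.12 ± 0.17). Goblet cells were not held to a secretory limit, and the median cycling sum was 0 CPM in replicate 1 and 106 CPM in replicate 2 of deep crypt secretory cells, against 0 CPM in goblet cells of both libraries.

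The remaining lists gave 8 higher and 2 lower of 21 immediate early and dissociation genes, 4 higher and 4 lower of 30 ion and water transport genes, 3 higher and 4 lower of 21 cytokine and MHC class II genes, 1 higher and 8 lower of 18 proteases and inhibitors, 3 higher and 5 lower of 20 bone morphogenetic protein and Id genes, 2 higher and 4 lower of 23 absorptive factors, and 1 lower of 13 mitochondrially encoded genes. Spink1, a trypsin inhibitor, was lower with 365 and 395 CPM in deep crypt secretory cells and 8016 and 8060 CPM in goblet cells (-4.70 ± 0.15). Ido1, the enzyme that opens the kynurenine pathway, had 19.7 and 60.2 CPM, against 355.8 and 426 CPM (-3.77 ± 0.23). Cd24a, a surface glycoprotein used to sort deep crypt secretory cells, had 781 and 614 CPM, against 252 and 165 CPM in goblet cells (1.42 ± 0.16). Kcne3, a potassium channel subunit of chloride secretion, had 86.4 and 77.9 CPM in deep crypt secretory cells and 16.1 and 15.6 CPM in goblet cells (2.06 ± 0.29).

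The largest differences over all genes were Mmp7, A4gnt, Etv5, Cdo1, Dll1, Ifitm3, Cps1, Cited4, Shmt1 and Sox4 on the higher side. Cdo1, which degrades cysteine, had 65.3 and 56.1 CPM in deep crypt secretory cells, against 3.50 CPM in goblet cells of replicate 1 and 0 in those of replicate 2 (4.32 ± 0.47). Ifitm3, an interferon-induced membrane protein, had 72.4 and 39.7 CPM, against 2.10 and 6.93 CPM (3.76 ± 0.43). On the lower side were Olfr448, B4galt2, Rab3b, Lama4, Ceacam19, C19orf25, Clca1, Cyp4x1os, Spink1 and Psca. Rab3b, a GTPase of regulated exocytosis, had 4.22 and 10.9 CPM in deep crypt secretory cells and 205 and 204 CPM in goblet cells (-5.23 ± 0.32), and the laminin chain gene Lama4 had 21.8 and 46.5 CPM, against 780 and 1209 CPM (-5.22 ± 0.21). The strand of counting is not given in the sources used here, so the antisense symbol Cyp4x1os and neighbouring genes are uncertain.

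Undifferentiated crypt cells, the 225 barcodes below all 4 limits and with a sum of immune genes below 1000 CPM, were the second comparison. Deep crypt secretory cells had higher Muc2 (3.32 ± 0.14), Spink4 (3.53 ± 0.16), Reg4 (3.24 ± 0.17) and Ccl6 (3.20 in log2), together with most of the tested genes that move proteins into the secretory pathway. They had lower levels of the water channel Aqp4 (-3.24 ± 0.18) and of several gasdermin genes. In all, 916 genes (5.57%) were higher and 632 genes (3.84%) lower, 1038 of them by at least 2-fold, with a median of 0.04 over all genes. Undifferentiated cells are named by the limits alone. They also held colonocyte markers at 1842 and 2681 CPM, against 643 and 1160 CPM in deep crypt secretory cells, and red cell genes at 1599 CPM in replicate 1, with 3 or more red cell markers in 1 barcode, against 4.22 CPM in deep crypt secretory cells. Enteroendocrine markers came to 67.7 and 107 CPM in undifferentiated cells, against 41.5 and 27.4 CPM in deep crypt secretory cells. At least 3 of them were found in 2 and 1 undifferentiated barcodes. The class also reaches up to the secretory limit. Counted without the immune limit, 16 and 5 barcodes had a secretory sum of 1000 to 1500 CPM. They held 4054 and 2642 CPM of Reg4 and 11840 and 11750 CPM of Muc2. Barcodes below 500 CPM (124 and 63) held 178 and 73.5 CPM of Reg4 and 389 and 377.5 CPM of Muc2. The class sums of Reg4 and Muc2 therefore mix barcodes of very different levels. The part of all these signals in the differences was not tested.

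Secreted products were higher for 11 and lower for 4 of 17 tested genes (median 2.41), and mucus proteins were higher for 8 of 11 and lower for none (median 1.76). Muc2 had 23030 and 15630 CPM in deep crypt secretory cells, against 2758 and 1364 CPM in undifferentiated cells, and Sval1 had 1988 and 2259 CPM, against 170 and 136 CPM (3.81 ± 0.16). Nov had 636 and 416 CPM in deep crypt secretory cells, against 26.9 and 62.7 CPM (3.78 ± 0.25). Tff3, Fcgbp and Clca1, which were lower than in goblet cells, were higher than in undifferentiated cells, by 2.21, 2.17 and 1.76 in log2. The 4 lower products were Dmbt1, Reg3b, Reg3g and Wfdc2. Dmbt1, a scavenger receptor protein of the mucosal surface, had 560 and 886 CPM in deep crypt secretory cells and 6679 and 6233 CPM in undifferentiated cells (-3.10 ± 0.14), and Reg3b and Reg3g, antimicrobial lectins, were lower by 3.07 and 2.73 in log2.

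Genes of translocation and vesicle coats were higher for 29 of 39 tested genes and lower for none, with a median of 0.66, and with library totals for 25, with 1 lower. The coat subunit Sec24d had 268 and 138 CPM in deep crypt secretory cells and 86.6 and 44.8 CPM in undifferentiated cells (1.68 ± 0.22). Isomerases and chaperones were higher for 17 of 27 genes and lower for none (median 0.72), among them Kdelr3, a receptor that returns chaperones to the endoplasmic reticulum (2.86 ± 0.32), and Fkbp11 (2.76 ± 0.33). Unfolded protein response genes were higher for 12 of 21 and lower for none (median 0.94). Creb3l4 had 141 and 122 CPM in deep crypt secretory cells, against 15.9 and 17.9 CPM (3.06 ± 0.31), and Ern2, the stress sensor of mucous epithelium, had 459 and 323 CPM, against 153 and 104 CPM (1.67 ± 0.18). Both libraries lay above both of undifferentiated cells for each of these genes.

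Mucin glycosyltransferases were higher for 23 and lower for 1 of 35 tested genes (median 1.25). Fut2, which adds the terminal fucose of secreted blood group antigens, rose by 1.52 in log2, Galnt12, which starts O-glycans, by 1.46, and the core enzyme chaperone C1galt1c1 by 1.97. St3gal4, a sialyltransferase, was the lower one (-0.93 in log2). Granule genes were higher for 8 and lower for 1 of 23 (median 0.73), with Syt7, a calcium sensor of exocytosis, at 249 and 239 CPM in deep crypt secretory cells and 41.8 and 25.1 CPM in undifferentiated cells (2.89 ± 0.23). The granule genes Rab27a, Capn9 and Bcas1, lower than in goblet cells, were higher than in undifferentiated cells by 1.56, 3.26 and 2.18 in log2.

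Secretory transcription factors were higher for 8 and lower for 3 of 20 genes (median 0.15). Foxa3 had 159 and 150 CPM in deep crypt secretory cells, against 50.7 and 23.3 CPM (2.04 ± 0.25), and Gfi1, which holds the secretory fate against the endocrine one, had 73.8 and 79.3 CPM, against 21.9 and 10.7 CPM (2.18 ± 0.33). Sox9 rose by 0.70 in log2, while Sox4, Insm1 and Neurod1 were lower. Neurod1 rested on 2 UMIs in deep crypt secretory cells and 16 in undifferentiated cells. Its call was lost with DESeq2, without the library block and with a cycling sum below 250 CPM. Of 17 Notch pathway genes, the ligands Dll1 (1.66 ± 0.47) and Dll4 (1.36 ± 0.28) were higher, and the receptor Notch1 (-1.56 ± 0.40) and the Notch target Nrarp (-1.88 ± 0.34) were lower. Dll4 had 86.4 and 79.3 CPM in deep crypt secretory cells and 23.9 and 51.9 CPM in undifferentiated cells. Thinning the sums ended both ligand calls, and that of Dll1 was also lost with DESeq2, without the library block and with a secretory sum of at least 3000 CPM. The Notch1 call was lost with DESeq2 and the Nrarp call in thinned sums. Kit (1.98 ± 0.27), Fgfr3 (1.78 ± 0.31) and Il13ra1 (1.07 ± 0.18) were higher, and the Kit ligand gene Kitl was lower with 30.9 and 27.4 CPM, against 119 and 120 CPM (-1.94 ± 0.27). These 4 were the calls among 17 genes of that list (median 0.22).

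Wnt and stem cell genes were higher for 2 and lower for 5 of 26 genes (median -0.36). Lgr4, a receptor for Wnt-amplifying R-spondins, had 95.5 and 87.5 CPM in deep crypt secretory cells and 214 and 249 CPM in undifferentiated cells (-1.26 ± 0.20). Ascl2, a stem cell factor, had 2 UMIs in deep crypt secretory cells and 17 in undifferentiated cells, a ratio of 0.0854 with a counting interval of 0.0096 to 0.36. The Ascl2 call was lost with DESeq2. Lgr5 had 8.43 and 5.47 CPM, against 22.9 and 7.16 CPM, and did not pass the test (-1.10 ± 0.52, adjusted p = 0.214).

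Cytokine and MHC class II genes were lower for 11 and higher for 1 of 21 genes (median -0.66). The higher one was Cd24a (1.20 in log2), and the lower ones included the antigen presentation genes H2-Eb1 (-0.90 in log2), H2-Aa (-0.54 in log2) and Cd74 (-0.64 in log2), Il18 (-1.88 ± 0.34) and Nos2 (-2.43 ± 0.39). Ion and water transport genes were lower for 10 and higher for 3 of 30 (median -0.39). Aqp4 had 98.4 and 226 CPM in deep crypt secretory cells and 1699 and 1394 CPM in undifferentiated cells, and the chloride channel genes Clcn2 (-2.63 ± 0.26) and Cftr (-2.03 in log2) were lower. Best2, a bicarbonate-permeable channel of goblet cells, was higher with 239 and 191 CPM, against 27.9 and 12.5 CPM (3.39 ± 0.26). Mitochondrially encoded genes were lower for 12 of 13 (median -0.74), as with mt-Cytb at 4186 and 9573 CPM in deep crypt secretory cells and 8366 and 18140 CPM in undifferentiated cells. The median mitochondrial share of UMIs was 3.21% and 6.98% in deep crypt secretory cells, against 5.27% and 10.3% in undifferentiated cells, and calls of this list were lost without the library block, as for mt-Cytb. Barcodes with a mitochondrial share of at least 15% were 2 and 8 of the deep crypt secretory cells, against 14 and 22 of the undifferentiated cells, and without them the calls of mt-Co3 and mt-Atp8 were lost.

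Immediate early and dissociation genes were higher for 11 and lower for 1 of 21 (median 0.80). Fosb had 227 and 153 CPM in deep crypt secretory cells and 37.8 and 37.6 CPM in undifferentiated cells (2.44 ± 0.24), and Fos, Jun, Egr1, Dusp1 and Atf3 were higher too. Such genes are known to respond to the dissociation of tissue, and its part in these differences was not tested. DNA replication and mitosis genes gave 3 calls, all lower, of 56 tested (medians -0.31 and -0.38), and none of 22 ribosome biogenesis genes passed edgeR's test (median -0.15, 2 at an unadjusted p below 0.05, 0 with DESeq2). The further lists gave 4 higher and 3 lower of 18 proteases and inhibitors, 5 higher and 4 lower of 21 cycle exit genes, 1 higher and 3 lower of 20 bone morphogenetic protein and Id genes, and 2 higher and 4 lower of 23 absorptive factors. Vdr, the vitamin D receptor, had 59.0 and 82.0 CPM, against 212 and 236 CPM (-1.62 ± 0.20), and the intestinal identity factor Cdx2 had 136 and 130 CPM, against 317 and 308 CPM (-1.17 ± 0.18).

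By size, the higher end over all genes was Retnla, Retnlg, Col8a1, Lrrn4, Clps, Sval1, Nov, Adamts8, Spink4 and Pla2g2a. Retnla had 52.0 CPM in deep crypt secretory cells of each library, against 2 UMIs in undifferentiated cells, a ratio of 40.6 with a counting interval of 11 to 340. Retnla and Retnlg are close relatives of Retnlb, which the limits used, so reads of Retnlb could be counted under them and both are uncertain. The lower end held Hsd3b3, Slc6a14, Aqp4, Nlrp6, Apol10a, Dmbt1, Gsdmc, Gsdmc2, Gsdmc3 and Gsdmc4. Gsdmc4 had 32.3 and 50.6 CPM in deep crypt secretory cells and 453 and 456 CPM in undifferentiated cells (-3.45 ± 0.21). The 4 gasdermin C genes are near-identical, so counts can be split among them. Nlrp6, an inflammasome sensor of the gut epithelium, had 19.7 and 20.5 CPM, against 182 and 199 CPM (-3.17 ± 0.26).

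Dividing secretory cells, 65 barcodes with a cycling sum of at least 1000 CPM, were the third comparison. Apart from cell cycle genes, the non-dividing cells differed by more Muc2 (1.18 ± 0.13), more Ccl6 (0.86 in log2), more Slpi (1.98 ± 0.25) and more of 11 of 35 tested mucin glycosyltransferases. Here 200 genes (1.22%) were higher and 224 genes (1.36%) lower, 285 of them by at least 2-fold, with a median of 0.14 over all genes. With library totals in place of TMM the median moved by -0.16 and 24.4% of the calls were higher, against 47.2% with TMM. Without the library block 125 genes passed, of which 11.2% were higher. DESeq2 gave 247 genes with 31.6% higher, and thinned sums 254 genes with 32.3% higher. The calls of Muc2, Gcnt3, Tff3, Fcgbp, Clca1 and Sval1 were lost without the block, while that of Slpi was kept. However, the top 5 non-dividing cells of each library held 44.1% and 64.2% of the Slpi UMIs of their class. The 38 and 27 dividing cells held 272227 and 217254 UMIs, which limits what can be detected.

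Mitosis genes were lower for 25 of 26 tested genes (median -3.35) and DNA replication genes for 7 of 30 (median -0.99). The limit on the cycling sum chose these directions, so they are a description. Cdca8, a chromosomal passenger protein, had 14.1 and 8.20 CPM in non-dividing cells and 257 and 253 CPM in dividing cells, and Hmgb2 had 149 and 202 CPM, against 1785 and 1855 CPM. Among the 10 largest lower differences all but the histone gene Hist1h2ap, the GTPase scaffold gene Iqgap3 and the cytokinesis gene Ect2 were in the mitosis list.

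Mucus proteins were higher in the non-dividing cells for 5 of 11 genes (median 0.86) and secreted products for 7 and lower for 1 of 17 (median 0.78). Muc2 had 23030 and 15630 CPM in non-dividing cells, against 9826 and 9026 CPM in dividing cells. Slpi had 214 and 336 CPM, against 77.1 and 73.7 CPM, and Spink4 rose by 0.75 in log2. Dmbt1 was the lower one (-0.94 in log2). Of 35 mucin glycosyltransferases, 11 were higher and none lower (median 0.58), including Gcnt3 with 386 and 276 CPM in non-dividing cells and 162 and 111 CPM in dividing cells (1.46 ± 0.22). Chaperones (3 of 27), unfolded protein response genes (2 of 21), translocation genes (4 of 39), granule genes (3 of 23) and secretory transcription factors (3 of 20) had calls that were all higher in non-dividing cells, with medians between 0.38 and 0.56, where 1.22% of all genes were higher. These calls depended on the scaling. With library totals 1 chaperone, 0 unfolded protein response genes, 1 translocation gene and 2 granule genes were higher. Of the transcription factors 2 were then higher and 1 lower, and the medians of these lists lay between 0.21 and 0.39.

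Most of the defining genes did not pass the test between non-dividing and dividing secretory cells. Reg4 differed by 0.48 ± 0.15 (adjusted p = 0.0622), and passed in 6 of the alternatives, such as cells with Zg16 below 10000 CPM (0.57). Its adjusted p ranged from 0.0016 to 0.879 over the alternatives. Txndc5 differed by 0.38 ± 0.16 (adjusted p = 0.274), Kit by 0.49 ± 0.28 (adjusted p = 0.498), and Dll1, with 24.6 and 26.0 CPM in non-dividing cells and 58.8 and 36.8 CPM in dividing cells, by -0.78 ± 0.43 (adjusted p = 0.473). A p above the threshold does not show that the levels were alike. Cd24a did pass, with 781 and 614 CPM in non-dividing cells and 533 and 437 CPM in dividing cells (0.69 ± 0.17, adjusted p = 0.0044), a call lost with DESeq2 and without the library block. Of 21 immediate early genes 5 were higher and 1 lower. Of the remaining lists, 2 of 13 mitochondrially encoded genes, 2 of 18 proteases and inhibitors, Il13ra1 of the growth factor list (1.19 ± 0.23), Id3 (1.25 ± 0.27), Aqp8 and Cd24a were higher, and Vdr (-1.01 in log2), Lgr4 (-0.86 ± 0.23), Cftr (-1.58 ± 0.37) and Cdkn2c (-2.77 ± 0.48) were lower. Without the library block, Il13ra1, Id3, Aqp8, Vdr, Lgr4, Cftr and both mitochondrially encoded genes lost their calls. The call was also lost for Lgr4 and Aqp8 with DESeq2, for Lgr4 without likely doublets, for Id3 with Zg16 below 10000 CPM, and for Vdr and Cftr in thinned sums. None of 17 Notch pathway genes passed edgeR's test (0 at an unadjusted p below 0.05, 0 with DESeq2), nor did any of 22 ribosome biogenesis genes (3 at an unadjusted p below 0.05, 0 with DESeq2).

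**Figure D2:**
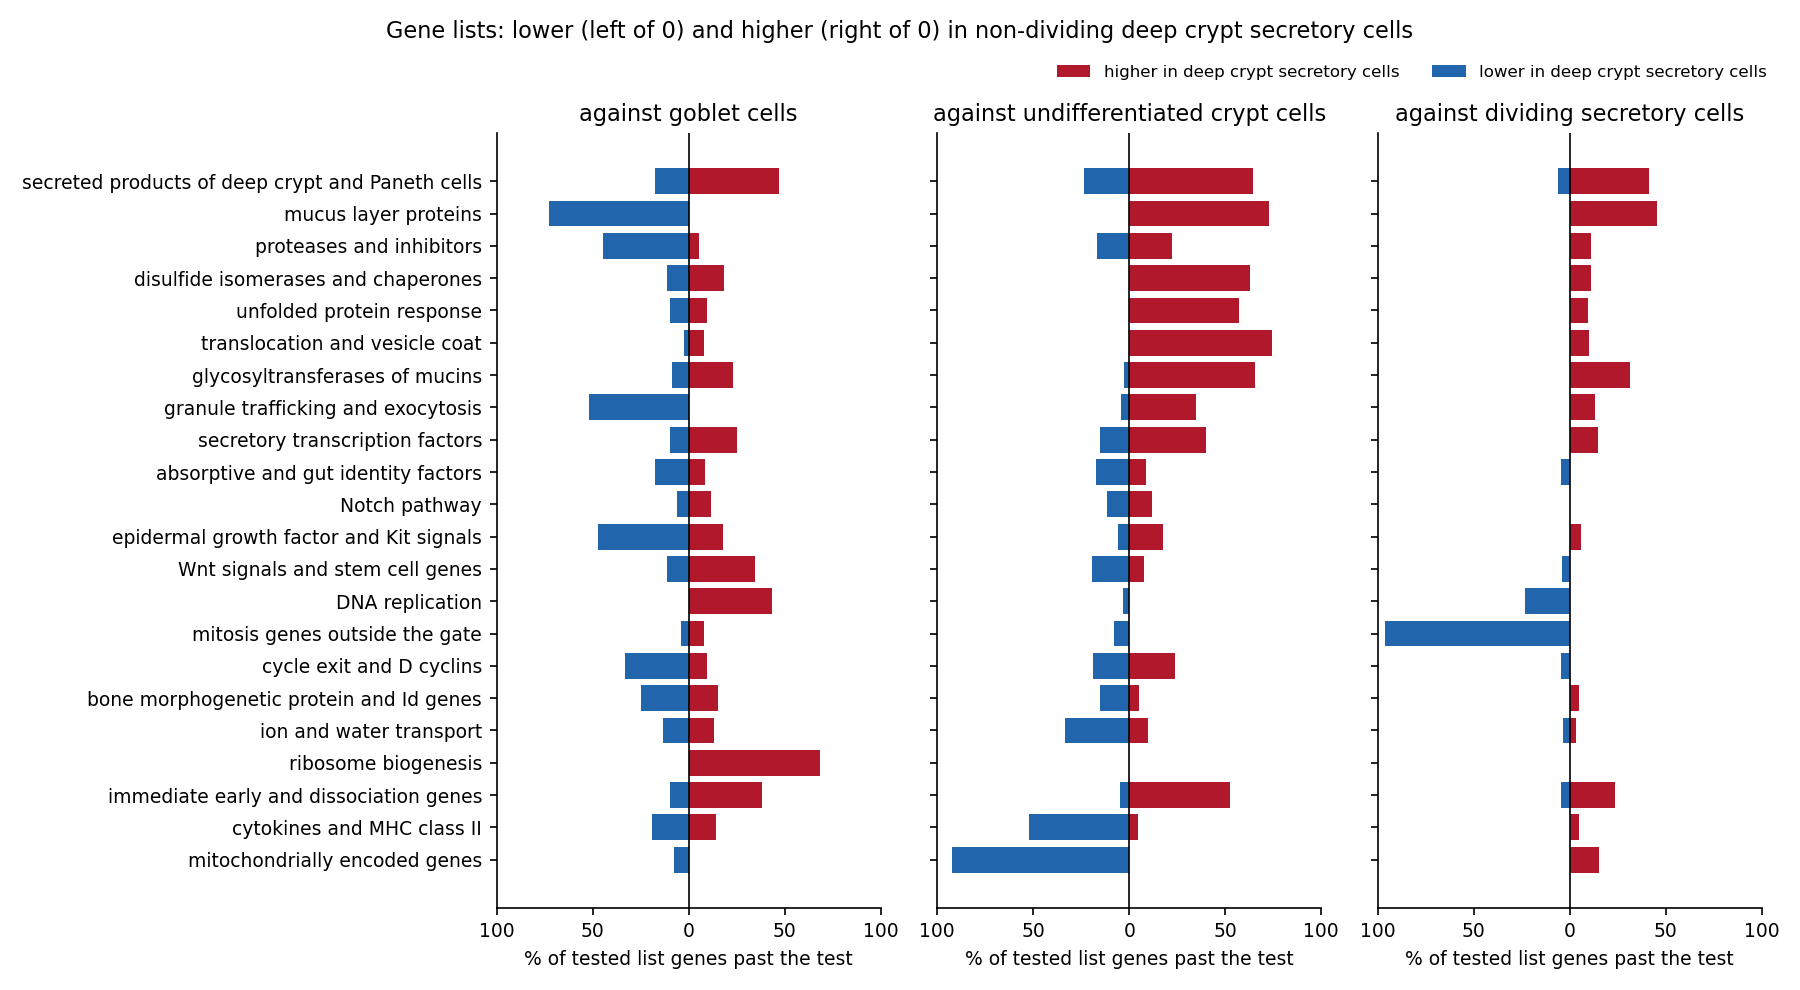
Share of the tested genes of each list that passed the test (x axis, percent), higher in deep crypt secretory cells to the right of 0 in red and lower to the left in blue, for goblet, undifferentiated crypt and dividing secretory cells. Mucus and granule genes lay to the left against goblet cells and to the right against undifferentiated cells, and 15 of 22 ribosome biogenesis genes were higher than in goblet cells.

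Within the deep crypt secretory cells, levels changed along Zg16, a gene of the limits, so the following is a description with no test. Reg4 stood at 6263 and 6022 CPM in cells with Zg16 below 1000 CPM (105 and 42 cells) and at 1957 and 1869 CPM in cells with Zg16 of 10000 to 20000 CPM (16 in each library). Goblet cells with Zg16 of at least 40000 CPM had 659 and 412 CPM. Cd24a went the same way, with 949 and 937 CPM in the band below 1000 CPM and 280 and 203 CPM in the band of 10000 to 20000 CPM. Fcgbp ran opposite, with 354 and 233.5 CPM in the lowest band and 2829 and 2570 CPM in the highest band of deep crypt secretory cells, and so did Clca1, with 366 and 278 CPM and 3377 and 2844 CPM. Tff3 had 1315 and 1305 CPM in the lowest band and 4484 and 4480 CPM in the highest. Muc2 had no such order, with bands between 21060 and 23240 CPM in replicate 1 and between 11300 and 17810 CPM in replicate 2. Across the limit, the next band, 20000 to 40000 CPM, held 2757 CPM of Reg4 in replicate 1, above the band below it, and 808 CPM in replicate 2, below it, with 4512 and 5703 CPM of Fcgbp.

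Cells with Zg16 of at least 5000 CPM were 12.6% of deep crypt secretory cells in replicate 1 (8.57% to 17.5%) and 35.0% in replicate 2 (25.7% to 45.2%). The libraries therefore held different mixtures along this order. Below 1000 CPM of Zg16 the libraries had close Reg4 levels, but in the next bands replicate 2 was lower, with 3111 CPM, against 6552 CPM in replicate 1, at 1000 to 2000 CPM of Zg16, 2968 against 5319 CPM at 2000 to 5000 CPM, and 1893 against 4357 CPM at 5000 to 10000 CPM. Along the secretory sum Reg4 had 4943 and 1119 CPM in cells between 1500 and 2000 CPM (17 and 10 cells), 3596 and 3720 CPM between 2000 and 4000 CPM (79 and 40 cells), and 8251 and 6200 CPM in cells of at least 8000 CPM (66 and 20 cells). Barcodes that failed only the secretory limit and lay between 1000 and 1500 CPM (16 and 5) had 4054 and 2642 CPM of Reg4, whereas those below 500 CPM had 178 and 73.5 CPM. Cells just under the secretory limit thus held Reg4 within the range of the chosen cells.

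**Figure D3:**
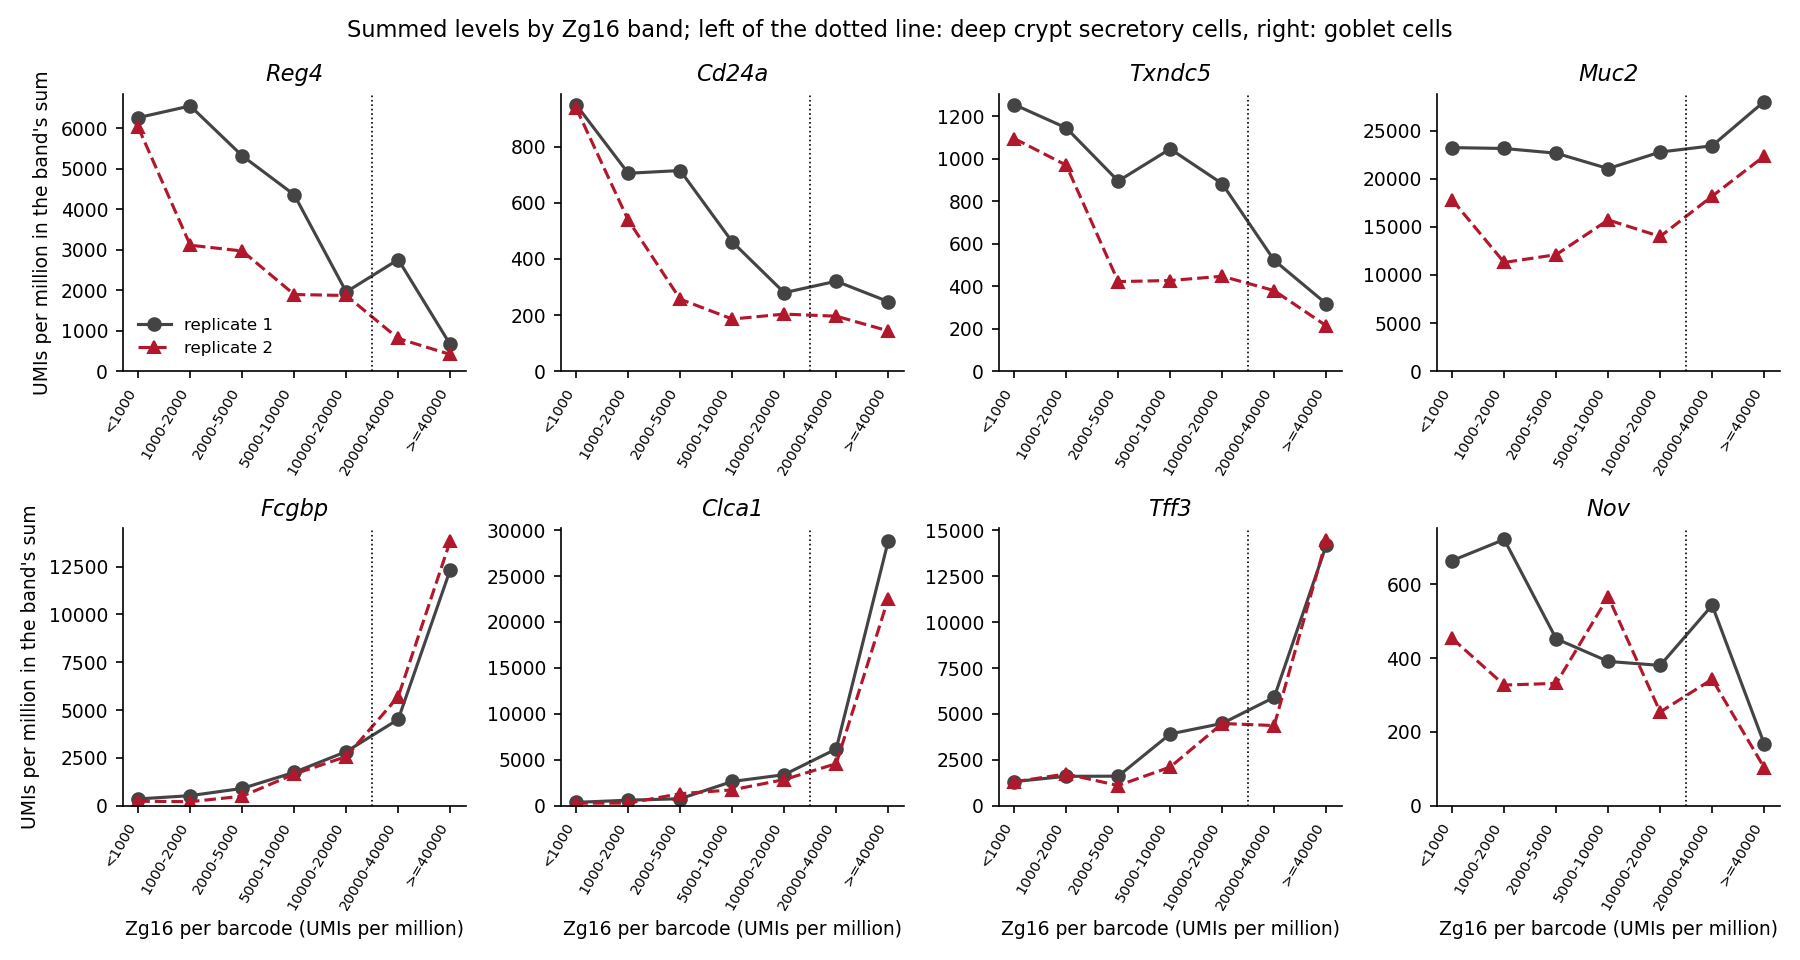
Summed level (y axis, CPM, linear) of 8 genes in bands of Zg16 per barcode (x axis), for replicate 1 (grey circles) and replicate 2 (red triangles); bands left of the dotted line are deep crypt secretory cells and bands right of it goblet cells. Reg4 and Cd24a were highest at low Zg16, Fcgbp, Clca1 and Tff3 at high Zg16, and Muc2 stayed above 11000 throughout.

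Variation from cell to cell was measured after thinning every cell to 3000 UMIs, as the variance of UMIs divided by their mean. The median of this ratio was 1.15 and 1.26 over 1504 genes, and the highest were Mptx1 (70.5 and 43.3), Muc2 (44.2 and 35.9) and Reg4 (33.0 and 30.1). Reg4 had a median of 3040 and 2112 CPM per cell, with the lowest cells at 0 and the highest at 66667 and 38331 CPM. Muc2 had a median of 20770 and 10810 CPM, the lowest cells at 408 and 310.5 CPM and the highest at 101970 and 66341 CPM, and every cell held a UMI of it. Txndc5 had lower ratios of 1.39 and 1.73, above the medians, and Kit had 0.99 and 1.22. The ratio depends on the mean and lies near 1 for genes with few UMIs. Kit had means of 0.433 and 0.52 UMIs per thinned cell, against 70.8 and 46.1 for Muc2. Its ratio therefore cannot show whether Kit varied little. Agr2, with 3.49 and 5.44, and Ccl6, with 4.95 and 4.42, lay between. Zg16, Dmbt1, Clca1, Sprr2a2, Sval1, Slpi, Dlk1, Retnlb, Tff3, Muc3, Gm20594, Spink4, Fcgbp, Lypd8, Saa1, Reg3g and Adcy2 made up the rest of the 20 most variable genes.

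**Figure D4:**
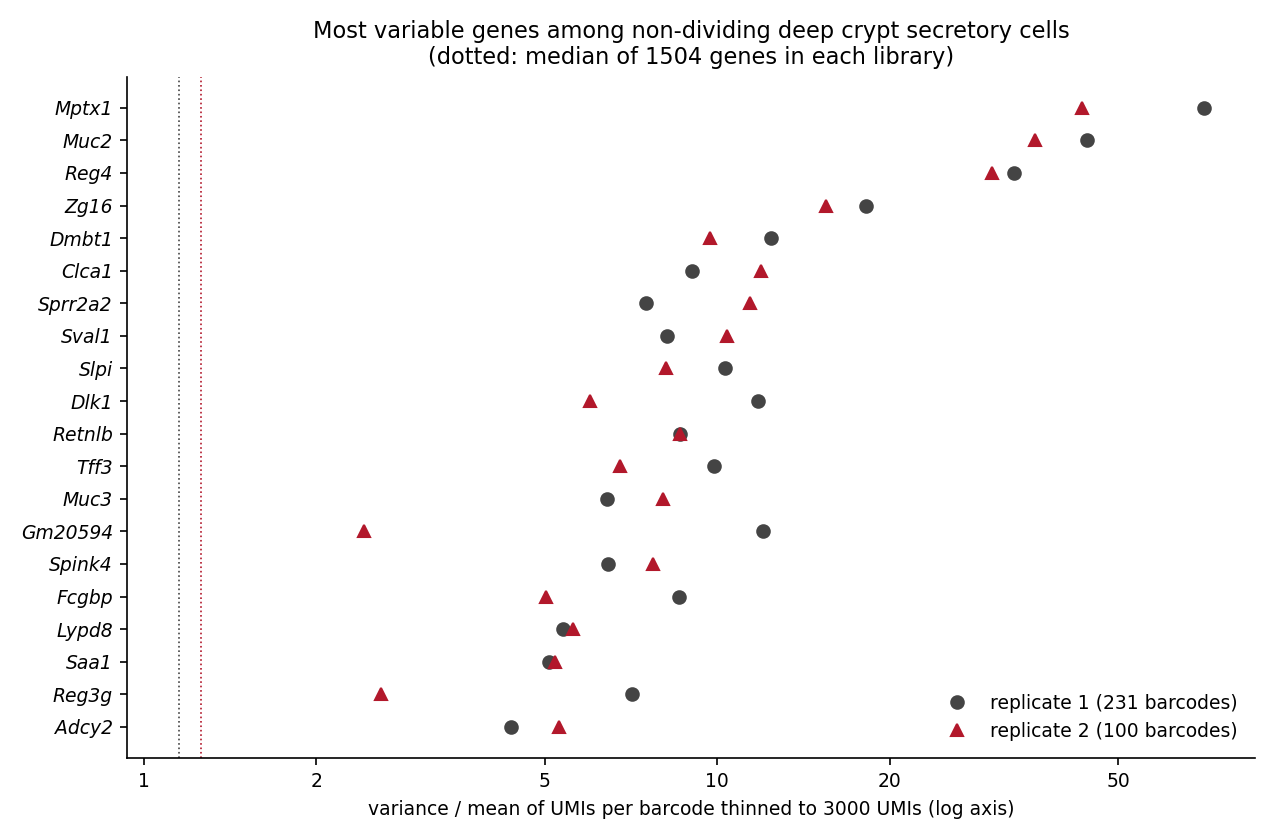
Variance-to-mean ratio of UMIs per cell thinned to 3000 UMIs (x axis, log scale) of the 20 most variable genes among deep crypt secretory cells, for replicate 1 (grey circles) and replicate 2 (red triangles), with the medians of 1504 genes as dotted lines. Mptx1, Muc2 and Reg4 lay above 30 in both libraries, and Gm20594 and Reg3g differed most between the libraries.

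Some of these genes varied together. Spearman correlations across the 231 and 100 thinned cells are given as a description, since cells of a library share their source, and were thinned to the same depth. Among 1495 genes, those that followed Reg4 most closely in both libraries were Pomt1 (0.59 and 0.59), Ccl6 (0.53 and 0.49), Spink4 (0.52 and 0.42), Cma1, Sval1, Rack1, Rpl23 and Rpl17, while Txn1 (-0.33 and -0.29) and Plet1 ran opposite. Muc2 was followed by Tgoln1 (0.60 and 0.58), Srpk3, Lrrn4, Hgfac, Ceacam10, Nov (0.57 and 0.43), Col5a2 and Spink4 (0.42 and 0.60). Tff3 ran opposite to Muc2 (-0.47 and -0.49) and to Nov (-0.45 and -0.37), and went with Fcgbp (0.50 and 0.49), Hsd11b2, Scin, Plac8, Krt8, Spink1, Clca1 and Ttr. Muc2 and Tff3, both products of goblet cells, thus tended to be high in different cells of the class. Mptx1 went with Reg4 (0.38 and 0.40). The limits used Mptx1, which alone met the secretory limit in 111 and 48 cells, so this correlation is not independent of the choice of cells.

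A few genes rested on a handful of cells. Dlk1, a Delta-like membrane protein, had a UMI in 49 of 231 and 23 of 100 cells, and the top 5 cells of each library held 57.8% and 74.4% of its UMIs. Slpi had 304 and 246 UMIs, of which the top 5 cells held 44.1% and 64.2%. Mmp7, the protease matrilysin of mouse Paneth cells, had 31 UMIs in 13 cells and 19 UMIs in 4 cells of deep crypt secretory cells, against 1 UMI in goblet cells (ratio 46.5, counting interval 7.98 to 1870) and 0 in dividing secretory cells. Against a floor of 3 UMIs over the group, Mmp7 was at least 3.79-fold higher than in dividing secretory cells, and against undifferentiated cells it did not pass (0.74 in log2, adjusted p = 0.383). The top 5 cells of each library held 74.2% and 100% of the Mmp7 UMIs. Its interval and bound cover counting error only and leave out this spread between cells. Of the 26 Lyz1 UMIs in replicate 1, 21 came from 1 cell, and of the 26 Neurog3 UMIs in replicate 2, 25 came from 1 cell. Lyz1 (2.30 ± 0.79, adjusted p = 0.0359) and Neurog3, the factor that starts endocrine fate (3.12 ± 0.87, adjusted p = 0.0061), passed against goblet cells on these counts, and neither kept its direction without the library that holds that cell (-0.37 for Lyz1 and -0.17 for Neurog3). Ang4, an antimicrobial ribonuclease, had 20 UMIs in 8 cells of replicate 1, of which 12 were in 1 cell, and 0 in replicate 2. Against undifferentiated cells, which held none, the pooled counts of Ang4 gave a bound of at least 4.84-fold over the floor of 3 UMIs. This bound covers counting error only and rests on replicate 1, since neither class held a UMI in replicate 2. The Ang4 call was lost with DESeq2.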

How the data were processed

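The authors deposited whole-number UMI counts per gene and barcode, 1 table per library and 25504 genes in each, with no normalization; per the submitters' processing notes the builds were GRCh38 and GRCm38, while aligner, strand and barcode selection are not given in these sources. The limits, lists and comparisons were chosen with earlier results of these data known. Genes are named by the symbols of the tables. UMI counts were summed per library and class (6 classes, 12 sums; common dispersion 0.0125, 5 residual degrees of freedom), and edgeR 4.0.16 in R 4.3.3 (TMM, glmQLFit, glmQLFTest) tested every gene whose sums held 20 UMIs or more. Library was the block, and it pairs the sums because each class was drawn from both libraries. DESeq2 1.42.0 was an alternative. The column names are running numbers, so shared barcodes were checked by their counts: 0 barcodes of one library had the counts of a barcode of the other. Doublets were kept; 13 and 6 deep crypt secretory cells were among the 5% of each library with the highest simulated doublet score, and an alternative left these out. Named genes are, per comparison, the 10 largest and 10 smallest log2 fold changes among called genes with at least 50 UMIs, a change of at least 2-fold and the same direction in both libraries (gene models and ribosomal protein genes left out), up to 4 called genes per list with the largest change, and well known genes of the cell type. Further list genes in the text, the genes correlated with Reg4, Muc2 and Tff3, and those counted in few cells were picked after their values were seen. On simulated counts for the same 16444 genes, 98% of 4-fold changes against goblet cells, 98% against undifferentiated cells and 77.5% against dividing secretory cells were recovered, and 62.2%, 55.1% and 40.8% of 2-fold changes. The changed genes were drawn only from genes well above the limit of 20 UMIs. All classes and libraries shared 1 expression profile and the common dispersion. These shares therefore do not cover genes with few UMIs or with a larger spread. Intervals cover counting error only. Other steps used Python 3.11.15 (scipy 1.17.1, numpy 2.4.6, matplotlib 3.10.9, pandas 2.3.3).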

Additional observations from a re-analysis of the deposited data

How the results depend on the processing

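The numbers of genes past the test were within 1.5 times of the reported ones under other scalings, without a filter on low counts, and under each other limit on the cells, on doublets and on mitochondrial share. DESeq2 gave fewer (1281 against goblet, 955 against undifferentiated and 247 against dividing secretory cells), as did leaving out the replicate block (845, 651 and 125) and thinning all sums to the smallest (826, 678 and 254), which by construction leaves fewer UMIs; otherwise the cause was not tested. The share of barcodes in the class fell in replicates 1 and 2 to 9.15% and 10.84% with at least 5000 UMIs, 9.67% and 10.24% with a secretory sum of at least 3000 CPM, and 10.47% and 10.24% with a cycling sum below 250 CPM. Of 271 named fold changes 256 passed the test, 143 of these kept direction and call under every tested alternative, and 253 had the same sign in each library alone. Leaving out the replicate block ended 82 calls, thinning 65 and DESeq2 57. A single library leaves no residual degrees of freedom, so without replicate 1 or without replicate 2 no genes were counted. Reversed signs were found for Lyz1 against goblet cells without replicate 1 (-0.37, against 2.89 without replicate 2), Neurog3 against goblet cells without replicate 2 (-0.17, against 3.39 without replicate 1), Ang4 against undifferentiated cells without replicate 1 (0.0, with no UMI in either class, against 3.14 without replicate 2) and, among fold changes that never passed, Lgr5 against goblet cells in thinned sums (0.079), Lgr5 against dividing cells with median-ratio size factors (-0.046), library totals (-0.16), DESeq2 (-0.10), at least 5000 UMIs (-0.15) and without likely doublets (-0.17), Dll4 against dividing cells in thinned sums (-0.59), and Tgfa against dividing cells in thinned sums (-0.29) and with at least 5000 UMIs (-0.014). The cause was not tested. Depth limits most what can be called against the 65 dividing secretory cells.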
